A study of Homo sapiens with 4 samples.

Results

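The library of resistant SUM159 cells given only the vehicle DMSO was described here as a baseline transcriptome. It is 1 of 4 libraries in the series and was chosen by its treatment label, and all 20289 genes in the deposited table were ranked in it by FPKM, a read count that the submitters had divided by transcript length and by library size. SUM159 is an established human triple-negative breast cancer line, and the labels write the paclitaxel-resistant derivative as SUM159-R. The growth protocol in the labels has the resistant line kept in 150 nM paclitaxel, in medium with insulin and hydrocortisone. The sources used here do not say if that paclitaxel was withdrawn before DMSO was given. The other libraries come from the same resistant line, given enzastaurin at 2.5 µM, paclitaxel at 500 nM, or both drugs, called the combination here. All 4 libraries, that of DMSO included, have a treatment time of 24 h. The genotype label is WT for all 4. A paclitaxel-sensitive parental library is not analysed here, so no level below can be set against sensitive cells.

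Triple-negative tumours are defined by low or missing oestrogen receptor, progesterone receptor and HER2 protein, and they span several cell states. Cells of the claudin-low state keep few tight-junction and epithelial adhesion proteins and carry a mesenchymal cytoskeleton and matrix. Paclitaxel binds beta tubulin in microtubules, and resistant lines are known for efflux by the pump P-glycoprotein, for altered tubulin isotypes and for survival signals from receptors. These topics set the order of the results.

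The DMSO library held 22576953 counts, and the other libraries held 18236527 to 24699948. Each condition has 1 library, so no level has an error between cultures and no test between conditions was made. Intervals in parentheses are exact 95% Poisson intervals of the rounded count, scaled to FPKM, and cover counting error only. Mitochondrial transcripts took 7.08% of counts in the DMSO library and 6.70% to 7.12% in the others.

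Of all genes in the table, 10710 (52.8%) reached 1 FPKM in the DMSO library, the level called detected below. Of these, 4202 lay between 1 and 10 FPKM, 5782 between 10 and 100, 666 between 100 and 1000, and 60 above that, so that 726 (3.58%) reached 100 FPKM. By counts, 57.1% of all genes had at least 20 and 35.6% had under 3. The median over all genes was 1.70 FPKM and that over detected genes 13.9 FPKM. The detected share of 52.8% is the background for each list count below. At the threshold, SLC22A4, ZNF565 and ZNRF2 were just outside at 0.99 FPKM, and CDK15, SLC30A4 and ZSCAN20 just inside at 1.00 FPKM. A further 3509 genes had counts but stayed below 1 FPKM, and 6070 genes (29.9%) had 0 counts. A count of 0 allows up to 0.133 CPM (counts scaled by the library total; a floor of 3 counts), so such a gene was not detectable at this depth rather than shown to be silent.

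The set of detected genes differed little between the libraries, of which the others detected 52.8% (enzastaurin), 52.9% (paclitaxel) and 51.9% (combination) of all genes. The 10710 genes of the DMSO library and the 10709 of the enzastaurin library shared 10583, which is 98.8% of each. With the paclitaxel library 10586 were shared, 98.8% of the DMSO set and 98.6% of the paclitaxel set. With the combination library 10410 were shared, 97.2% of the DMSO set and 98.8% of the combination set. In all 4 libraries 10335 genes were detected.

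The most abundant transcripts were those of respiration, translation and the cytoskeleton. The 10 highest genes took 14.9% and the 100 highest 37.1% of the summed FPKM. Of the 30 highest, 9 are encoded by the mitochondrion, 7 encode ribosomal proteins and 14 neither, and MT-CO1, a subunit of cytochrome oxidase, led at 15047 FPKM. Outside mitochondrial and ribosomal genes the order began with EEF1A1 (a translation elongation factor) at 7810 FPKM, FTH1 (the ferritin heavy chain) at 6236, GAPDH at 3950, MT2A (a metallothionein) at 3572 and ACTB at 3449. VIM came next, and TMSB10 (an actin-sequestering peptide) at 2217 FPKM and SRI (the calcium-binding protein sorcin) at 2052 FPKM followed it. A mesenchymal intermediate filament gene therefore stood among the housekeeping genes of this library.

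**Figure D1:**
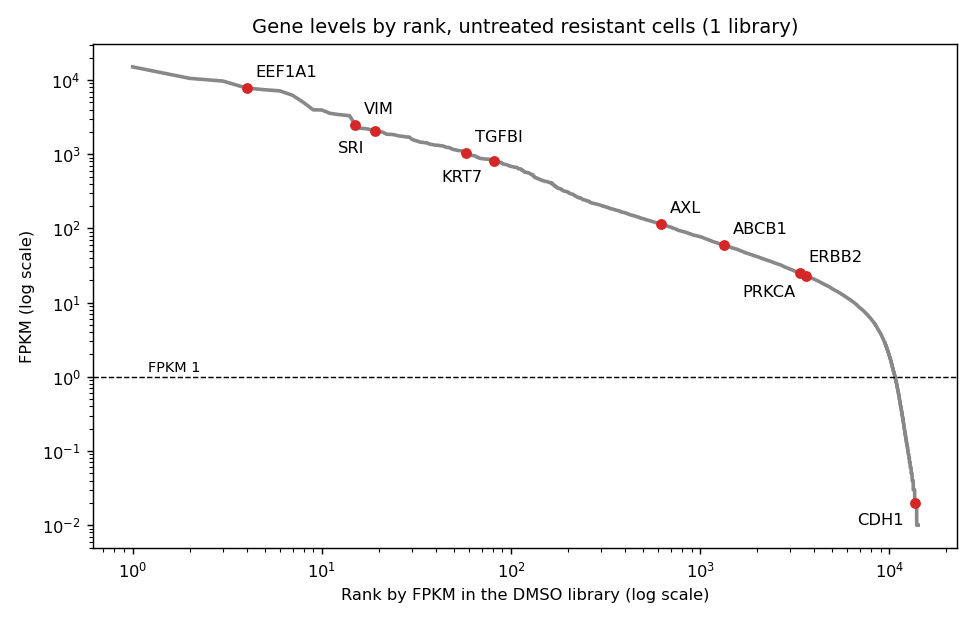
FPKM of every gene above 0 in the DMSO library against its rank, both on log scales, with 10 genes marked in red. VIM stands at rank 15 with 2508 FPKM, AXL at rank 621 with 114 FPKM, and CDH1 at 0.02 FPKM lies far below the dashed line at 1 FPKM.

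Of the 8 genes that mark the line, 5 were detected and 3 had at most 1 count. VIM (vimentin; hg38 chromosome 10, 17228259 to 17237593) had 2508 FPKM (2493 to 2524) in the DMSO library, 2124 in enzastaurin, 2191 in paclitaxel and 1948 in the combination. AXL (chromosome 19, 41219203 to 41261766), a receptor kinase linked to mesenchymal states, had 114 FPKM (112 to 116), against 101, 81.0 and 52.6 in the same other libraries. ABCB1 (chromosome 7, 87503633 to 87713323), which encodes P-glycoprotein, had 59.9 FPKM (58.4 to 61.4) in DMSO, and 68.4, 73.9 and 91.7 in the others. The DMSO library was thus the highest of the 4 for VIM and AXL and the lowest for ABCB1, each as 1 library per condition.

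The receptors of the triple-negative definition were unequal at the mRNA level. ESR1 (the oestrogen receptor; chromosome 6, 151656691 to 152129619) had 0 counts in DMSO and 0, 2 and 3 counts in enzastaurin, paclitaxel and the combination. PGR (the progesterone receptor) also had 0 counts in DMSO. ERBB2 (HER2; chromosome 17, 39687914 to 39730426) was detected at 24.97 FPKM (23.9 to 26.1), above 83.4% of all genes, with 19.0 to 23.2 FPKM in the other libraries. HER2 status is scored on protein or gene copies, which are not measured here. The epithelial adhesion genes CDH1 (E-cadherin; chromosome 16, 68737225 to 68835548) and EPCAM (chromosome 2, 47345158 to 47387601) had 1 and 0 counts in DMSO. In enzastaurin, paclitaxel and the combination CDH1 had 14, 1 and 14 counts and EPCAM 5, 5 and 3, so neither passed 0.2 FPKM in any library. PRKCA (protein kinase C alpha; chromosome 17, 66302636 to 66810743) was at 23.2 FPKM (22.5 to 23.9) in DMSO and 20.7 to 24.7 in the others.

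Mesenchymal genes were abundant. Of 32 listed markers, 24 were detected, or 75% against 52.8% of all genes, and their median was 38.6 FPKM against 1.70 over all genes. The same number, 24, was detected in each of the other libraries. FN1 (fibronectin) was at 414 FPKM in DMSO, against 391, 424 and 320.1 in enzastaurin, paclitaxel and the combination. In the DMSO library TGFBI, a matrix protein induced by TGF-beta, had 1037 FPKM (1029 to 1045), CAV1 (caveolin 1) 469, S100A4 214, CD44 (the hyaluronan receptor) 205 and SPARC 150. The N-cadherin gene CDH2 was at 38.3 FPKM (36.9 to 39.7). The fibrillar collagens were uneven. COL1A1 had 19.0 FPKM and COL5A1 23.3, while COL3A1 had 0.40 FPKM and COL1A2, whose product pairs with that of COL1A1 in type I collagen, had 5 counts at 0.04 FPKM. The 3 listed collagen VI genes were all present, with COL6A3 at 76.8, COL6A2 at 65.1 and COL6A1 at 39.0 FPKM. The basement membrane collagens COL4A2 and COL4A1 had 11.6 and 3.42 FPKM. The members below 1 FPKM also included THY1, FAP and CDH11, with 5, 2 and 2 counts, and POSTN with 0.

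Of 14 transcription factors tied to the epithelial-mesenchymal transition, 12 were detected (85.7% against 52.8% of all genes), with a median of 8.83 FPKM. FOSL1, the AP-1 subunit FRA-1, led with 167 FPKM (163 to 172). TWIST2 had 54.3 FPKM (51.6 to 57.0) in the DMSO library, 21.4 times (17.2 to 27.1) the FPKM of TWIST1, and that ratio was between 7.24 and 13.96 in the other libraries. SNAI2 (Slug) had 24.7 FPKM (23.3 to 26.1), 10.7 times (8.61 to 13.4) that of SNAI1 (Snail). Within each of these pairs 1 paralogue made up most of the transcript. The E-cadherin repressors ZEB2 and ZEB1 were closer, at 18.3 and 12.8 FPKM, a ratio of 1.42 (1.33 to 1.53). The intervals of SNAI2 and FOXC2, at 23 FPKM, overlapped. PRRX1 at 0.31 FPKM and SNAI3 with 2 counts were below 1 FPKM.

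Epithelial junction genes were mostly below 1 FPKM. Of 28 listed, 6 were detected (21.4%), 12 had 0 counts (42.9% against 29.9% of all genes), and the median was 0.02 FPKM. Of the 6 detected, 4 reached 10 FPKM: TJP1, DSG2, PKP3 and a further member not named here. Those detected include genes shared with non-epithelial contacts: TJP1 at 21.9 FPKM, which encodes the scaffold ZO-1, and JUP (plakoglobin) at 8.90 FPKM. Desmosomal genes were split, with DSG2 at 33.6 FPKM (32.6 to 34.7) and PKP3 at 11.6, while DSP (desmoplakin) had 6 counts and DSC2, PKP1 and PKP2 had 0. Of the claudins of the list, CLDN1 was at 1.16 FPKM (0.93 to 1.43), CLDN4 had 9 counts, CLDN7 2 and CLDN3 0. The regulators of epithelial identity GRHL2, OVOL1 and OVOL2 had 0 counts, as did RAB25 and CRB3, and the splicing factors ESRP1 and ESRP2 had 1 and 6. Low CLDN3, CLDN4 and CLDN7 is the combination after which the claudin-low state is named, and low CDH1 goes with it. CLDN4, the highest of these 4 genes, was at 0.14 FPKM (0.06 to 0.27).

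Simple keratins were high, while many luminal and basal lineage genes stayed below 1 FPKM. Of 20 luminal genes, 8 were detected (40% against 52.8% of all genes) with a median of 0.17 FPKM, and 12 were present at 0.1 FPKM, which 12572 of all 20289 genes reached. KRT7 had 822 FPKM (812 to 831), KRT18 198 (193 to 203) and KRT8 184 (180 to 188), whereas KRT19, a further simple-epithelial keratin, had 0 counts. VIM was 3.05 times (3.01 to 3.09) KRT7 in FPKM, so both filament systems were transcribed. KRT7 was at 822 FPKM in DMSO, against 675, 735 and 593 in enzastaurin, paclitaxel and the combination, so the DMSO library was the highest. Of the 20 luminal genes, 5 reached 10 FPKM: KRT7, KRT18, KRT8, ERBB2 and a further member that is not a keratin. GATA3 at 1.17 FPKM lay just above the threshold and FOXA1 at 0.47 below it, and both are luminal lineage factors. TFF1, TFF3, AGR2 and ELF5 had 0 counts. Of 20 basal and myoepithelial genes, 5 were detected (25% against 52.8% of all genes), with a median of 0.08 FPKM, and 10 were present at 0.1 FPKM. KRT5 and KRT14 had 1 count each, and KRT6B, KRT16, KRT17, CDH3 and SOX10 had 0. The basal factors TP63 and FOXC1 were present at a low level, 3.96 and 3.05 FPKM. ACTA2 (smooth muscle actin) was the highest of the list at 6.17 FPKM.

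**Figure D2:**
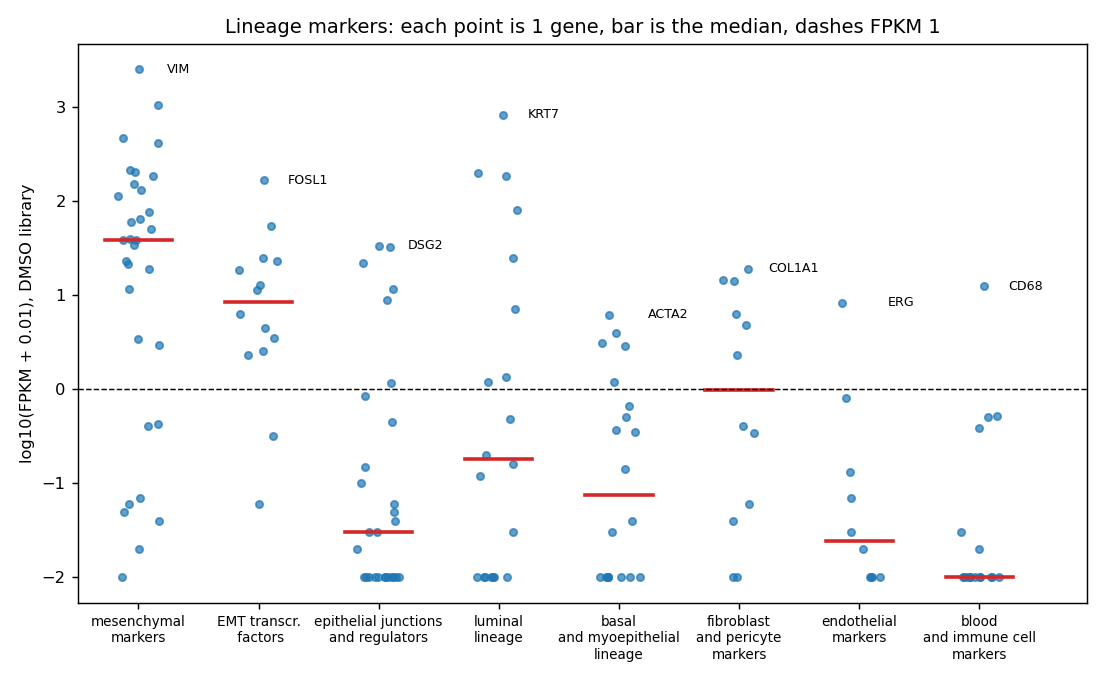
Level of each listed gene in the DMSO library as log10(FPKM + 0.01), by list, with the median as a red bar and the highest gene of each list named. The mesenchymal median is 38.6 FPKM, the epithelial junction median 0.02 FPKM and the luminal median 0.17 FPKM.

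Markers of other cell types were nearly all below 1 FPKM. Of 17 blood and immune markers, 1 was detected, CD68 at 12.4 FPKM, a lysosomal glycoprotein gene, and 11 had 0 counts. PTPRC (CD45), which defines blood cells, had 13 counts at 0.51 FPKM. Of 10 endothelial markers, 1 was detected, the transcription factor gene ERG at 8.27 FPKM (7.66 to 8.91), while CDH5 and VWF had 1 count each. Of 15 adipocyte, neural, melanocyte and hepatic markers, 1 was detected, SNAP25 at 3.39 FPKM, and ALB and TYR had 0 counts. Fibroblast and pericyte markers were mixed, with 6 of 12 detected (50%), near the share of 52.8% over all genes. DCN (decorin) was at 14.6 FPKM, PDGFRA at 14.1 and COL1A1 at 19.0, but LUM and DES had 0 counts and FAP 2. Summed FPKM of the blood list was 13.8 in DMSO and 10.4 to 15.3 in the others, and that of the fibroblast list 61.8 in DMSO and 62.7 to 83.0 in the others. The part of these transcripts in the levels above was not tested.

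Short promoter stretches show how sequence features went with these levels. Of the genes with a symbol, 15190 matched a RefSeq promoter of 300 bases (GRCh38.p14, 250 before to 50 after the start). CG dinucleotides numbered 27 (median; quartiles 20 and 35) in the 8726 promoters of detected genes and 6 (3 and 19) in the 3983 of genes with 0 counts. The hexamer CACCTG, the core bound by ZEB and Snail factors, was searched on both strands, where it reads CAGGTG on the other. It stood in 19.7% of all matched promoters, 16.8% of those of detected genes and 24.4% of those with 0 counts. In the epithelial junction list 8 of 17 matched promoters held it, 6 of them among the 13 below 1 FPKM and 2 among the 4 detected. In the mesenchymal list 3 of 22 held it. The promoters of RAB25, CLDN3, AXL and ABCB1 are shown because they cover an undetected gene with few CG, an undetected gene with many, and both a detected receptor and the detected pump with few. Capitals mark the hexamer in the first 3 and the single CG in ABCB1.
RAB25 promoter: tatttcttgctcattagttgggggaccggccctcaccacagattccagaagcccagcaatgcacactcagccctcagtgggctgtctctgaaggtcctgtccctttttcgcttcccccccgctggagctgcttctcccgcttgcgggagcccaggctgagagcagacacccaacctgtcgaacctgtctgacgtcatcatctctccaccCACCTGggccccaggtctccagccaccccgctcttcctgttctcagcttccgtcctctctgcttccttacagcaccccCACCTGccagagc
CLDN3 promoter: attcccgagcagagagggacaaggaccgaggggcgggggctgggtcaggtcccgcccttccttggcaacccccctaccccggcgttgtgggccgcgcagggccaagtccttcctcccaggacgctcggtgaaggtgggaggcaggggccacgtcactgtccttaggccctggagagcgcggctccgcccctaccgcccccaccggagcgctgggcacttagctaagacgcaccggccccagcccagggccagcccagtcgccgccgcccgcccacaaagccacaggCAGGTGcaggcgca
AXL promoter: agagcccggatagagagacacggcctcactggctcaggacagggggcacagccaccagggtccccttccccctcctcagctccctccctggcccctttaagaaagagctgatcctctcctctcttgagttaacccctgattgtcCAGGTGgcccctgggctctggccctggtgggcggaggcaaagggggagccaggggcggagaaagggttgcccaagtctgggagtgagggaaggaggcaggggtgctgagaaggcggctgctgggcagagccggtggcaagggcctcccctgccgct
ABCB1 promoter: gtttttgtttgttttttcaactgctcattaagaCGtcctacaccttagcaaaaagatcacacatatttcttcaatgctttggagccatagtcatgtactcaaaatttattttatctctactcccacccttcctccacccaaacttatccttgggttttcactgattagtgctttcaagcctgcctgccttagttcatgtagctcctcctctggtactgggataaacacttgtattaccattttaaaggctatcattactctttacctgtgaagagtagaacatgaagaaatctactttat
They lie at chr1:156060910-156061209 (plus strand), chr7:73770221-73770520 (minus strand), chr19:41218973-41219272 (plus strand) and chr7:87713246-87713545 (minus strand). RAB25 held 2 hexamers and 9 CG with 0 counts, and CLDN3 held 1 hexamer and 24 CG with 0 counts. AXL held 1 hexamer and 7 CG at 114 FPKM, and ABCB1 held 1 CG at 59.9 FPKM. Among the promoters shown, the hexamer was present for the detected AXL and for the undetected RAB25 and CLDN3. Over all matched promoters its share was 16.8% for detected genes and 24.4% for genes with 0 counts. CLDN3, with 24 CG, lay nearer the median of detected genes, 27, than that of genes with 0 counts, 6. AXL and ABCB1, with 7 and 1 CG at the starts shown, lay nearer that of genes with 0 counts. Each stretch belongs to 1 start of its gene, that of ABCB1 being at the upstream end of the gene. Whether these cells use that start was not measured. A match describes these letters only, and binding was not measured.

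Surface antigens used to sort breast cell states came next. Of 18 listed, 13 were detected (72.2% against 52.8% of all genes), with a median of 34.4 FPKM. CD44 was at 205 FPKM and CD24 at 0.66 (0.46 to 0.92), a ratio of 310 (222 to 448) in DMSO and 198 to 387 in the others; a high CD44 and low CD24 is used to define breast cells with stem-like properties. CD24 has near-identical copies in the genome, so its count depends on how reads were assigned. Of the aldehyde dehydrogenases used for the same purpose, ALDH1A3 was at 1.70 FPKM and ALDH1A1 had 5 counts. PROCR was at 37.2 FPKM, ITGA6 at 40.7 and NT5E (CD73) at 50.2. PROM1 (CD133) had 0 counts and LGR5 1.

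Of 43 receptor tyrosine kinases, 19 were detected (44.2% against 52.8% of all genes), 14 had 0 counts and the median was 0.19 FPKM. These shares lie near those of all genes. AXL was the highest, at 2.14 times (2.06 to 2.21) EPHA2 in the DMSO library and 1.06 to 1.95 times in the others. EPHA2, an ephrin receptor, had 53.4 FPKM (51.9 to 55.0). MET, the receptor of hepatocyte growth factor, had 37.2 FPKM (36.2 to 38.3) and EGFR 35.8 (35.0 to 36.6), a ratio of 1.04 (1.00 to 1.08). Across the libraries EGFR was at 35.8 FPKM in DMSO, against 35.7, 32.8 and 28.9 in enzastaurin, paclitaxel and the combination. MET was at 37.2 FPKM in DMSO, against 39.2, 37 and 37.1 in enzastaurin, paclitaxel and the combination. RYK at 33.2, PTK7 at 29.8 and EPHB4 at 28.8 FPKM came next, the last pair with overlapping intervals. Then came ERBB2, FGFR1 at 18.9 FPKM and ROS1. ROS1 was at 16.5 FPKM in DMSO, against 19.9, 17.7 and 11.8 in enzastaurin, paclitaxel and the combination. ROS1, an orphan-type receptor kinase rarely transcribed in adult tissue outside lung, had 2654 counts in the DMSO library. The kinases of the insulin family were low, with IGF1R at 2.65 FPKM and INSR at 2.01. ERBB3, the usual partner of HER2, had 11 counts and ERBB4 1, so EGFR and ERBB2 were the family members detected. MERTK had 1 count, and TYRO3 at 11.3 FPKM was the other detected member of the AXL family. KIT, FGFR2, RET, ROR2, ALK, FLT1 and the 3 NTRK genes had 0 counts.

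Of 25 nuclear receptor genes, 18 were detected (72.0% against 52.8% of all genes), with a median of 7.63 FPKM. PPARG, a lipid sensor, led at 27.5 FPKM (25.9 to 29.2), followed by NR3C1, the glucocorticoid receptor, at 24.1 (23.2 to 24.9). NR1H2 at 19.9 and ESRRA at 19.7 FPKM could not be separated by counting error. VDR was at 7.63 FPKM. ESR2, the second oestrogen receptor, was at 0.63 FPKM (0.49 to 0.79), while NR1I2 (PXR), a xenobiotic sensor that induces ABCB1 in other tissues, and RXRG had 0 counts.

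Of 33 cytokine and TGF-beta receptors, 28 were detected (84.8% against 52.8% of all genes) with a median of 12.8 FPKM. TNFRSF1A, the main receptor of TNF, had 123 FPKM (119 to 126), IL6ST (the shared subunit gp130) 98.04 and TNFRSF12A (the TWEAK receptor) 79.0. Of receptors that pair with gp130, OSMR was at 46.6, LIFR at 15.2 and IL6R at 10.3 FPKM, while IL11RA was at 0.59 FPKM. TGFBR2 at 56.0 FPKM was 10.2 times (9.27 to 11.1) TGFBR1 at 5.51 FPKM. The chemokine receptors CXCR4 and ACKR3 had 0 counts. Of 25 integrins, 12 were detected, near the share of 52.8% over all genes, and 5 had 0 counts. ITGB1, the shared beta chain, had 216 FPKM (213 to 219), with its fibronectin partner ITGA5 at 120 and its laminin partners ITGA3 at 88.7 and ITGA6 at 40.7. The beta chains ITGB5, at 34.6 FPKM, and ITGB3, at 3.62, can pair with ITGAV, which was at 17.7. The leukocyte chains ITGAL, ITGAX and ITGB2 had 0 counts, and ITGB6, an epithelial chain, had 1.

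Of 19 drug transporter genes, 12 were detected (63.2% against 52.8% of all genes) and 5 had 0 counts. ABCB1 was highest per length. MVP, the major vault protein, which is not itself a pump, followed at 53.7 FPKM (51.7 to 55.6), then ABCC2 at 34.0 (33.0 to 35.1) and ABCC3 at 33.3 (32.2 to 34.5), whose intervals overlapped. ABCB1 exceeded ABCC2, which also transports taxanes, 1.76-fold (1.69 to 1.83) in DMSO, and 1.64- to 3.42-fold in the other libraries. It exceeded ABCC1 3.38-fold (3.23 to 3.54) and ABCG2, the breast cancer resistance protein, 7.28-fold (6.71 to 7.90). ABCB4, its close paralogue and neighbour, had 3.65 FPKM, and ABCB5 and ABCB11 had 0 counts. SLCO1B1 and SLCO1B3, hepatic carriers that take up paclitaxel, had 0 counts, as did SLC22A7.

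The enzymes that oxidise paclitaxel in liver were below 1 FPKM. Of 13 measured genes of paclitaxel metabolism, 4 were detected (30.8%). CYP2C8 and CYP3A4 had 0 counts, CYP3A5 was at 0.97 FPKM (0.79 to 1.18), and CYP1B1 at 0.55. The conjugating enzyme gene GSTP1 was at 443 FPKM (433 to 453), while GSTM1 and GSTA1 had 0 counts. EPHX1 at 38.3 and POR at 36.2 FPKM had overlapping intervals.

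ABCB1 lay in a stretch of well-transcribed genes on chromosome 7. In chromosome order, ABCB4 at 3.65, ABCB1 at 59.9, RUNDC3B at 25.2, SLC25A40 at 267, DBF4 (the activator of the replication kinase CDC7) at 733, ADAM22 at 45.2, SRI at 2052 and STEAP4 at 23.8 FPKM followed each other. SRI ranked 19 and DBF4 92 of all genes, and SRI was at 1903 to 2125 FPKM in the other libraries. On the side of ABCB4, DMTF1 had 13.95, TMEM243 10.1 and CROT 5.45 FPKM, and GRM3, further out, had 0 counts. Gene copy number was not measured.

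A stretch of chromosome 9 was the reverse. Between RPS6 at 1115 FPKM and TUSC1 at 2.13 FPKM, 29 consecutive genes of the table from ACER2 to IZUMO3 (19409059 to 24545946) held 28 with 3 counts or fewer and 25 with 0. The ends of the stretch were set from these counts, so its length is a description. Of these 29, 16 are interferon genes, which few cells transcribe unstimulated. Of the other 13, which include the cell cycle inhibitors CDKN2A and CDKN2B and the metabolic enzyme MTAP, 12 had 3 counts or fewer. MTAP, CDKN2A and CDKN2B had 0 counts in the DMSO library. CDKN2A had 0 in every other library too, MTAP had 0, 2 and 1 and CDKN2B 7, 0 and 3 in enzastaurin, paclitaxel and the combination. The exception was KLHL9, a ubiquitin ligase adaptor gene with a close paralogue that may share its reads, with 248 counts and 1.91 FPKM (1.68 to 2.16). Beyond the stretch CAAP1 had 9.5 and PLAA 24.3 FPKM. Loss of the DNA was not tested.

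**Figure D3:**
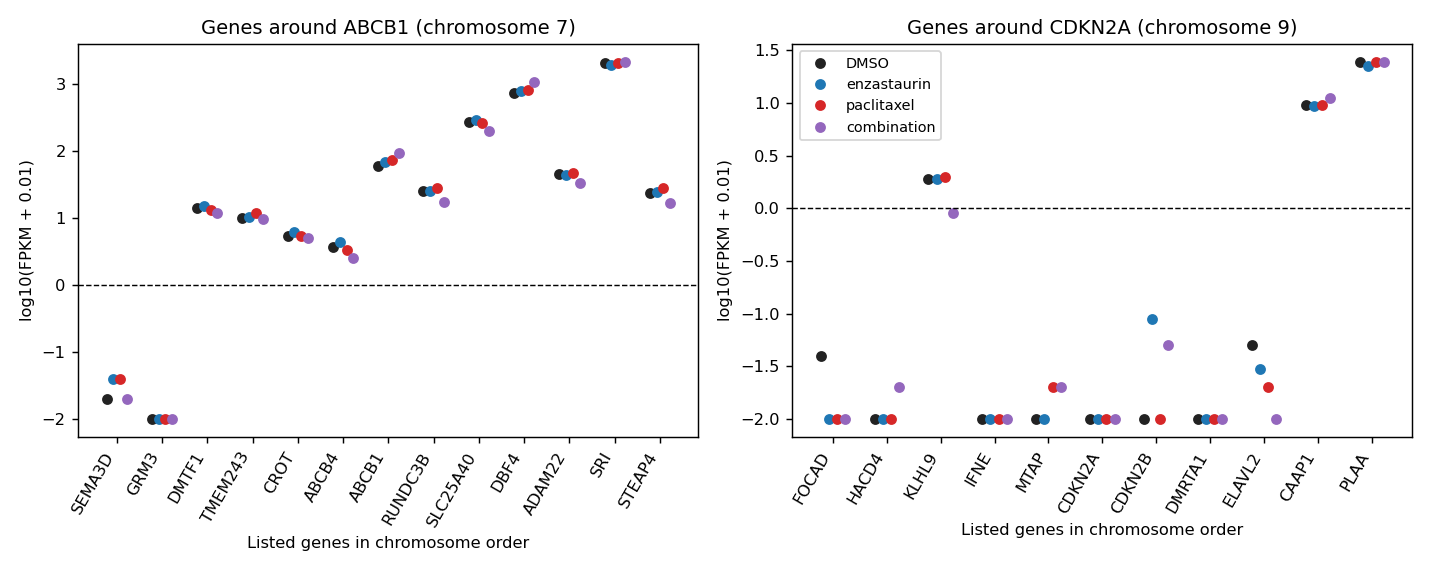
Level of listed neighbours of ABCB1 (left) and of CDKN2A (right) in chromosome order, as log10(FPKM + 0.01), in all 4 libraries, with dashes at 1 FPKM. SLC25A40, DBF4 and SRI stand above ABCB1 in every library, and MTAP and CDKN2A stay below 0.02 FPKM in every library.

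Most of the tubulin FPKM came from few isotypes. Isotypes are near-identical in their coding sequence, so reads can be split between copies. Of 9 alpha tubulin genes 4 were detected (44.4% against 52.8% of all genes). TUBA1B had 1787 FPKM (1773 to 1800) and gave 65.4% of summed alpha tubulin FPKM, TUBA1C 28.4%, TUBA4A 3.93% and TUBA1A 2.24%. TUBA3C and TUBA3E, testis isotypes, had 0 counts. Of 9 beta tubulin genes 5 were detected (55.6%), so both counts were near the share over all genes. TUBB (class I) had 1119 FPKM (1110 to 1128) and gave 61.0%, TUBB4B (class IVb) 25.4%, TUBB6 (class V) 6.68%, TUBB3 (class III) 5.22% and TUBB2A (class II) 1.66%. TUBB3, the neuronal isotype often studied in taxane resistance, was at 95.8 FPKM (92.7 to 99.0), 0.086 times (0.083 to 0.089) TUBB. Its level was 94.9 to 105 FPKM in the other libraries, while TUBB was at 514 to 1240. TUBB4A had 1 count, TUBB1 3 and TUBB8 0. TUBG1, the gamma tubulin of spindle poles, was at 79.8 FPKM and its paralogue TUBG2 at 7.10.

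**Figure D4:**
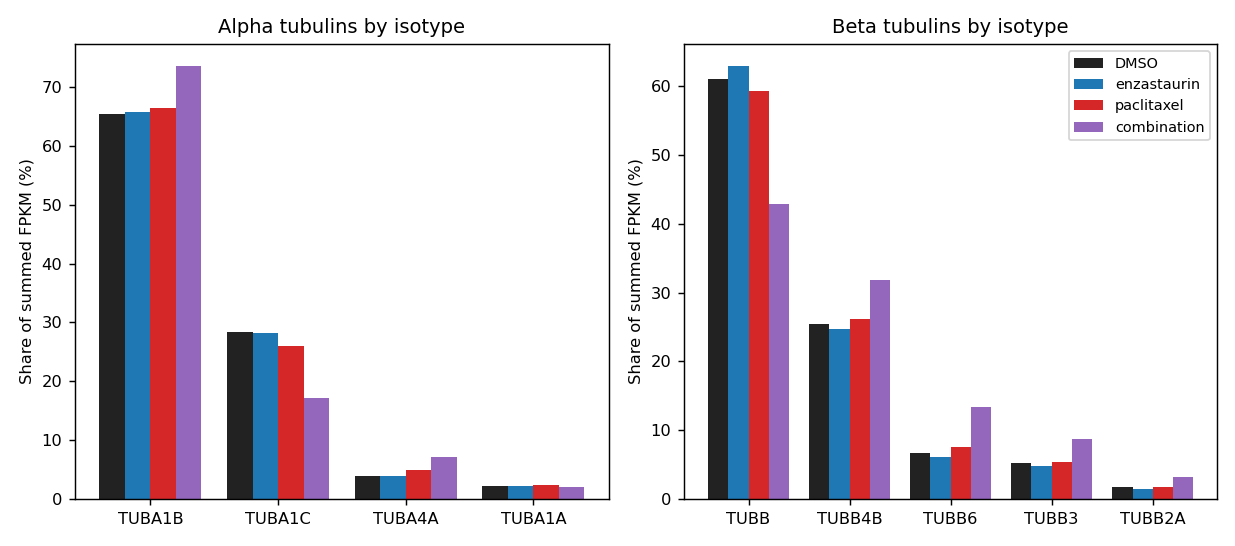
Share of each isotype in the summed FPKM of alpha tubulins (left) and beta tubulins (right), for isotypes of at least 1% in the DMSO library, with 1 bar per library. In the DMSO library TUBA1B gives 65.4% and TUBB 61.0%; in the combination library TUBB gives 42.8%.

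Of 38 regulators of microtubules, 32 were detected (84.2%) with a median of 13.4 FPKM. STMN1 (stathmin), which destabilises microtubules, led at 357 FPKM (349 to 365), followed by MAP4, the main stabilising protein of non-neuronal cells, at 161 (159 to 164). Among neuronal microtubule-associated proteins, MAPT (tau) was at 2.38 FPKM, MAP1A at 0.14, MAP1B at 24.3 and MAP2 at 11.9. STMN2, a neuronal stathmin, had 0 counts. MAPRE1 (EB1) was at 73.1, CKAP5 at 55.1 and TPX2 at 124 FPKM. Of the enzymes that modify tubulin, TTL had 11.5 FPKM, HDAC6 12.6, ATAT1 5.05 and VASH1 0.65.

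Protein kinase C genes, the target family of enzastaurin, were present in each class. Of 15 PKC, PKD and PKN genes 11 were detected (73.3%). PRKCA and PRKCD, at 22.5 FPKM (21.2 to 23.8), had overlapping intervals and a ratio of 1.03 (0.97 to 1.10). Of the atypical isozymes PRKCI was at 16.1 FPKM and PRKCZ at 0.56. PRKCH was at 7.90 and PRKCE at 1.19 FPKM, and PRKCB and PRKCQ had 0 counts.

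**Figure D5:**
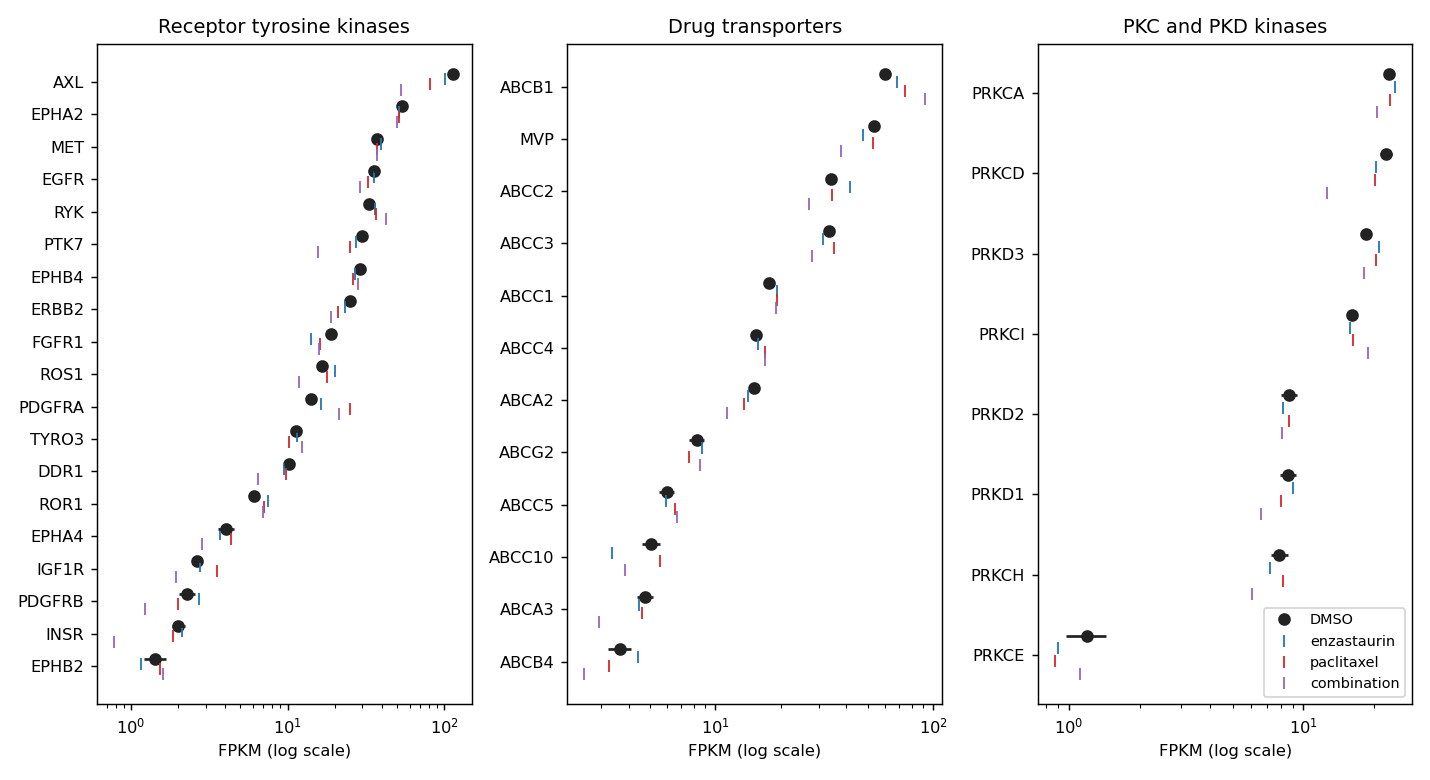
FPKM on a log scale of the detected receptor tyrosine kinases, drug transporters and PKC and PKD kinases. Black points with bars are the DMSO library with its 95% counting interval, and ticks are the enzastaurin, paclitaxel and combination libraries. AXL at 114, ABCB1 at 59.9 and PRKCA at 23.2 FPKM head the 3 panels.

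Secreted factors were led by proteins of matrix turnover and adhesion. Of 48 proteases, inhibitors and matricellular proteins 32 were detected (66.7%), with a median of 17.3 FPKM. ANXA2, an annexin found on both sides of the membrane, had 1173 FPKM and LGALS1 (galectin 1) 822. The plasminogen activator genes were lower, PLAT at 45.0 and PLAU at 23.7 FPKM, with their receptor PLAUR at 14.9. MMP2 (gelatinase A) at 72.6 FPKM was 1.25 times its inhibitor TIMP2. MMP14, the membrane protease that activates MMP2, had 3 counts, and MMP9, MMP10 and MMP13 had 0. THBS1, CCN1 and CCN2, targets of YAP, were at 125, 143 and 47.9 FPKM in the DMSO library and at 30.7 to 116, 24.3 to 123 and 13.4 to 46.4 in the others. IGFBP4 was at 124 FPKM and IGFBP6 at 41.2, while IGFBP3 and SPP1 had 0 counts.

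Growth factor genes were near the background, with 30 of 56 detected (53.6% against 52.8% of all genes). Epiregulin, an EGFR ligand encoded by EREG, was highest at 72.5 FPKM (70.9 to 74.2), 19.8 times (16.3 to 24.3) AREG, and its interval overlapped that of FSTL1 at 70.0. Other EGFR ligands were HBEGF at 8.72 FPKM, BTC with 8 counts, EGF with 6 and TGFA with 0. NRG1, a ligand of ERBB3 and ERBB4, was at 18.3 FPKM. FSTL3 at 67.0, TGFB1 at 53.4 and DKK3 at 51.5 FPKM are regulators of TGF-beta and WNT signals. GAS6 and PROS1, ligands of the AXL family, were at 6.89 (6.22 to 7.61) and 24.6 (23.5 to 25.8) FPKM. The MET ligand HGF had 19 counts at 0.32 FPKM. VEGFA was at 37.9 FPKM, and IGF1 and INHBB had 0 counts.

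Of 37 cytokine and chemokine genes, 12 were detected (32.4% against 52.8% of all genes), with a median of 0.34 FPKM and 10 at 0 counts. At a level of 0.1 FPKM, 23 of 37 were present, against 12572 of all 20289 genes. MIF (macrophage migration inhibitory factor) at 383 FPKM (373 to 394) and IL32 at 250 (243 to 257) led. CXCL8 (interleukin 8) was at 78.9 FPKM (76.0 to 81.8), 19.7 times (16.2 to 24.2) CXCL1. CXCL2 and CXCL3, at 24.9 and 24.3 FPKM, could not be separated. IL18 was at 43.3 FPKM and CSF1 at 37.7. IL6 was low at 2.32 FPKM (1.69 to 3.11), and the interferon-induced chemokines CXCL9 and CXCL10 had 0 counts.

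Antigen presentation genes of class I were present and those of class II were not. Of 26 listed, 19 were detected (73.1%). B2M had 741 FPKM, HLA-B 92.1 and HLA-C 21.2. HLA genes are polymorphic and alike, so reads can be lost or split between them. HLA-DRA, HLA-DRB1 and HLA-DPA1 had 0 counts and their activator CIITA was at 0.40 FPKM. The ligand CD274 (PD-L1) was at 2.74 FPKM (2.39 to 3.12) and CD276 (B7-H3) at 45.8.

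Proliferation transcripts were abundant: all 18 listed proliferation genes were above 10 FPKM, against 32.1% of all genes, with a median of 85.5 FPKM. CCNB1 was at 230 FPKM, MCM7 at 220, PCNA at 168, TOP2A at 117 and MKI67 at 63.7. Among growth control genes, 26 of 29 were detected (89.7%). MYC was at 187 FPKM in DMSO, against 148, 173 and 97.8 in enzastaurin, paclitaxel and the combination, so the DMSO library was the highest of the 4. CDK4 was at 167 FPKM and CCND1 (cyclin D1) at 126 in DMSO, while CCND2 had 1 count. The inhibitors CDKN1A, CDKN2C and CDKN1B were at 23.3, 22.5 and 7.53 FPKM. RB1 was at 22.8 FPKM. Mutations were not examined.

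Cancer-testis antigens, germline genes that tumours can express, were detected in 7 of 28 cases (25% against 52.8% of all genes) and had 0 counts in 14. XAGE1A had 108 FPKM, MAGEA6 60.2, MAGEA12 37.1, MAGEA2 11.4, MAGEA3 8.33, MAGEA1 7.43 and XAGE1B 6.68. MAGEA4, MAGEA10, CTAG1B and both listed SSX genes had 0 counts and PRAME 1. The MAGEA and XAGE genes are near-identical copies, and summing XAGE1A with XAGE1B and MAGEA2, MAGEA3, MAGEA6 and MAGEA12 leaves 3 detected units.

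Several gene families of other tissues were almost wholly at 0 counts. These families were chosen after their values were seen. Of 415 olfactory receptor genes 390 had 0 counts (94% against 29.9% of all genes), as did 92 of 94 keratin-associated protein genes, all 38 beta-defensins, all 22 PRAMEF genes and all 13 interferon alpha genes. Rearranging segments behaved alike, with 198 of 199 immunoglobulin and 80 of 80 T cell receptor segments at 0. In contrast, 78 of 78 mitochondrial ribosomal protein genes and 48 of 50 proteasome genes were detected, and zinc finger ZNF genes lay near the background at 310 of 515 (60.2%). Of the genes with 0 counts in the DMSO library, 4419 (72.8% of them; 21.8% of all genes) had 0 in all 4 libraries. Among the autosomes and X the detected share was lowest on X, at 41.1%, with 45.9% on chromosome 21 and 46.2% on chromosome 14. It was highest on chromosome 16, at 60.7%. Chromosome Y was left out.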

How the data were processed

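The labels give total RNA, cDNA made from random primers, and an Illumina NovaSeq6000 instrument. The deposited table holds expected counts and FPKM for 4 libraries. Per the submitters' processing notes, the authors used RSEM and hg38; version, aligner and annotation were not given in the sources used. In the DMSO library 11.4% of the deposited expected counts are not exactly whole, and all were rounded. The deposited FPKM were used as they stand. Columns were matched to samples by treatment name, and 583 genes have no symbol. The sources do not say if a library pools cultures.

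CPM used the table's total. Ratios of 2 genes have exact 95% intervals (Clopper-Pearson). Detected means at least 1 FPKM. Named genes are the 8 markers, the 30 genes highest by FPKM, all tubulins and, from each list, up to 10 highest members and any under 3 counts or under 1 FPKM. Other genes named were chosen after their values were seen: ABCB4, ALDH1A3, AREG, ATAT1, CCN2, CD274, CDH2, CDKN1B, CDKN2C, COL4A1, COL4A2, COL5A1, COL6A1, COL6A2, COL6A3, GAS6, HBEGF, HDAC6, HLA-C, IGF1R, IGFBP4, IGFBP6, IL6, IL6R, INSR, LIFR, MAP1B, MAP2, MAPT, MKI67, MMP2, NRG1, PLAT, PLAU, PLAUR, RB1, SNAI1, TGFBR1, TIMP2, TTL, TWIST1, TYRO3 and VDR. The members and 33 gene lists were chosen with earlier results of these data known, and 7 further lists and the families after the values were seen. Coordinates are from GENCODE 29 (99.4% of IDs matched) and promoters from RefSeq. Intervals were tried on counts simulated from the same Poisson model, which checks the calculation only. Errors of read assignment or between cultures were not simulated. Reads carry no molecular identifiers, so they are not independent molecules. Software was Python 3.11.15 with numpy 2.4.6, pandas 2.3.3, scipy 1.17.1 and matplotlib 3.10.9.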

Additional observations from a re-analysis of the deposited data

Results flagged for a closer look

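A signal outside the DMSO library was seen for 13 genes, which had 0 counts there and at least 20 in another library. Of these, 4 have a symbol. FREM2, which encodes a basement membrane protein, had none in DMSO, and 26, 2 and 22 counts in enzastaurin, paclitaxel and the combination. H2AC18, a histone gene with a near-identical copy, had 0 in DMSO and 0, 45 and 52 in the same order. The readthrough genes TGIF2-RAB5IF and CORO7-PAM16 reached 23 and 20 counts in their highest library. In the other direction, 1 gene with at least 20 counts in DMSO had 0 in all the others. These differences were not tested, since each condition has 1 library.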

How the results depend on the processing

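No paired analysis was possible because no condition has a further library, and leaving out a replicate was not possible either. The number of detected genes stayed within 1.5 times of 10710 under FPKM minimums of 0.5 and 0.1, TPM, CPM, 20 counts, genes with a symbol, and in the other libraries. Of 33 list counts, 31 stayed so at 0.5 FPKM, 28 at 0.1 FPKM, and 32 each for TPM, CPM and 20 counts. At 0.1 FPKM the basal list had 10 members, cytokines 23, blood markers 4, endothelial markers 3 and the adipocyte, neural, melanocyte and hepatic list 4. At 0.5 FPKM the blood and endothelial lists had 2 each, and the endothelial list also had 2 by TPM, CPM and 20 counts. Near-identical copies summed, a setting chosen, like the other libraries, after seeing the data, left 3 cancer-testis antigens. Ranked by CPM, VIM stood at 11, ABCB1 at 534, AXL at 275, ERBB2 at 2491 and PRKCA at 852, and VIM at 7 among nuclear genes with a symbol. By counts rather than FPKM the alpha tubulin shares were 2.44% for TUBA1A, 69.3% for TUBA1B, 24.1% for TUBA1C and 4.14% for TUBA4A, and the beta tubulin shares 70.9% for TUBB, 1.24% for TUBB2A, 4.06% for TUBB3, 18.4% for TUBB4B and 5.38% for TUBB6. The 10 and 100 highest genes took 8.88% and 24.1% of counts, and 8.35% and 29.4% of FPKM without mitochondrial genes. Over members with at least 1 count, which leaves out the zeros, 21 of 33 list medians were over 1.5 times higher. In FPKM they were 42.4 for the 8 markers, 1.32 for luminal, 0.57 for basal, 0.29 for epithelial junction, 4.07 for receptor kinase, 11.7 for nuclear receptor, 3.33 for integrin, 11.7 for transporter and 1.21 for paclitaxel metabolism genes. They were 61.1 for alpha tubulins, 63.1 for beta tubulins, 0.85 for cytokines, 2.66 for growth factors, 39.3 for proteases and matricellular proteins, 1.91 for the chromosome 9 neighbours and 3.80 for cancer-testis antigens. They were 0.43 for blood, 0.09 for endothelial, 3.54 for fibroblast, 0.09 for adipocyte, neural, melanocyte and hepatic markers and 5261 for RNA make-up genes. A pseudocount of 0.1 or 1 left all 33 list medians within 1.5 times. Depth limits statements on genes under 3 counts, 7219 in all.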

Other observations

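Keratins other than the simple ones were chosen for description after their values were seen. KRT75, a keratin of hair follicles, was at 157 FPKM in DMSO, against 121, 161 and 112 in enzastaurin, paclitaxel and the combination. It had 7684 counts in DMSO, where KRT8 was at 184 FPKM and KRT80 at 36.1 FPKM. Of 55 keratin genes 6 were detected (10.9% against 52.8% of all genes) and 36 had 0 counts. Of 24 claudins 3 were detected (12.5%), led by CLDN12 at 12.99 FPKM and CLDN15 at 4.41, neither of which belongs to the junction list.

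HOX genes, which carry positional identity along the body, were detected in 14 of 39 cases (35.9% against 52.8% of all genes). The lists of this and the next paragraph were chosen after their values were seen. Of the HOXC cluster 8 of 9 were detected, led by HOXC10 at 26.5 FPKM in DMSO, against 25.9, 24.96 and 17.9 in enzastaurin, paclitaxel and the combination. Of the HOXA genes 4 of 11 were detected, led by HOXA10 at 8.37 FPKM, of HOXB 1 of 10 (HOXB7 at 2.11 FPKM), and of HOXD 1 of 9 (HOXD8 at 1.23 FPKM).

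Of 11 metallothioneins, zinc- and copper-binding proteins, MT2A at 3572, MT1E at 187 and MT1X at 144 FPKM were detected and 8 had 0 counts. Of 17 S100 genes 8 were detected, near the share of 52.8% over all genes, led by S100A6 at 969, S100A10 at 277 and S100A11 at 221 FPKM, and 6 had 0 counts. In glucose use, LDHA at 1145 and LDHB at 678 FPKM were both high, HK1 at 142 FPKM exceeded HK2 at 17.3, and PKLR, a form known from liver, had 0 counts.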
